A study of Mus musculus with 4 samples.

Results

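A set of 10 genes that write, remove or read DNA methylation was followed in mouse splenic regulatory T cells. It holds the methyltransferases Dnmt1, Dnmt3a and Dnmt3b, the dioxygenases Tet1, Tet2 and Tet3, and the methyl-DNA binding proteins Uhrf1, Mbd1, Mbd2 and Mbd4. They were chosen by name. Each matched exactly 1 transcript cluster of the array by its gene symbol, so 10 of the 30492 genes tested were members, and all 10 had a value on all 4 arrays. DNA methyltransferases place a methyl group on cytosine, mostly where a guanine follows, and TET enzymes oxidise that group, which opens the way to an unmethylated base. In regulatory T cells this balance is known for the enhancers of Foxp3, whose demethylation keeps the gene on through cell division.

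The cells were splenic CD4 T cells of mice 7 to 8 weeks old, sorted for green fluorescence under Foxp3 control (15000 to 40000 cells per sample). The 2 arrays labelled KO (replicates 1 and 2) came from mice in which the Foxp3EGFP-cre transgene (B6-Tg(Foxp3EGFP-cre)1cJbs/J) was combined with a BMI1-flox allele on C57BL/6, so that Cre acts where Foxp3 is expressed. The 2 arrays labelled WT (replicates 1 and 3) came from mice with the same transgene on C57BL/6 and no floxed allele, so both groups carried the fluorescent Cre. Bmi1 encodes a subunit of Polycomb repressive complex 1, which places ubiquitin on histone H2A. The labels give neither the number of floxed copies nor whether each sample was its own animal. If it was not, the p-values cover technical spread only. The titles and the treatment field describe unstimulated cells, while the design text has the cells stimulated through CD3 and CD28 for 24 h.

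Bmi1 itself read 9.58 and 9.91 on the arrays labelled KO, against 8.98 and 8.98 on the arrays labelled WT (log2 values). The difference was 0.765 (SE 0.16, limma adjusted p 0.300). Both KO arrays lay above both WT arrays, as for 20.9% of all genes, so the targeted gene did not lie where its label would put it. Which exons its cluster covers is not given in the sources used here, so a cluster that lies outside the floxed exons would be no check of the label. All directions below therefore rest on the labels. Array medians lay between 4.65 and 4.72. The T cell gene Cd4 read 12.55 to 12.96 over the 4 arrays and the regulatory T cell receptor gene Il2ra 14.97 to 15.01. Of 7 T cell markers 6 were higher on the arrays labelled KO, where 51.0% of all genes were. The summed linear levels of the 7 were 506425 to 526179 on the arrays labelled KO and 435598 to 448260 on the arrays labelled WT. The sum over all genes tested was separated in the same direction. It was 108254940 and 108235921 on the arrays labelled KO, against 96582824 and 98653164 on the arrays labelled WT. Among the T cell markers the receptor subunit gene Cd3e differed by 0.565 (SE 0.06, limma adjusted p 0.141). Cd28, the 1 that was lower, differed by -0.09 (SE 0.13, limma adjusted p 0.886). Of 7 regulatory T cell markers 4 were higher and 3 lower, from -1.335 for Lrrc32 (SE 0.25, limma adjusted p 0.298) to 1.15 for Gpr83 (SE 0.28, limma adjusted p 0.354). The CD8 T cell genes were split in level, with Cd8a at 4.07 to 4.23 and Cd8b1 at 10.71 and 11.26 on the arrays labelled KO, against 9.74 and 10.78 on the arrays labelled WT. Of 8 B cell markers, 2 were higher, 5 lower and 1 equal, and 7 had a mean below that of the median gene (5.03), among them Ms4a1 at 4.09 to 4.36. The exception, Cd79b, read 7.42 and 7.64 on the arrays labelled KO, against 7.53 and 7.91 on the arrays labelled WT. Foxp3 shares its cluster with other genes and was not analysed here. Of 7 plasma cell markers 6 were higher on the arrays labelled KO, with a summed linear level of 2701 to 3378 there and 2249 to 2662 on the arrays labelled WT. Of the 7, 4 had both KO arrays above both WT arrays, against 20.9% of all genes. Ighg2b differed by 1.81 (SE 0.12, limma adjusted p 0.106), Jchain by 1.03 (SE 0.13, limma adjusted p 0.205) and Sdc1 by -0.03 (SE 0.08). The brightest, Xbp1, made up most of that sum on every array. It overlapped, with 11.50 and 11.14 on the arrays labelled KO, against 10.98 and 11.25 on the arrays labelled WT. In bulk RNA, fewer cells of a type and less RNA per cell cannot be told apart.

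The 10 genes differed little between the genotypes. Differences (KO minus WT, log2) ran from -0.28 for Tet2 to 0.30 for Tet1, with 5 genes higher, 5 lower and a median of -0.02. Over all 30492 genes tested the median was 0.005. Irrespective of sign, the median size of a difference was 0.113 for the members and 0.105 for all genes. Of the members, 0 passed a Benjamini-Hochberg adjusted p under 0.05 in limma (smallest adjusted p 0.542), where 0.00656% of all genes passed, and 0 had an unadjusted p under 0.05, where 10.1% of all genes did. The groups were fully separated for Tet2 and Tet3, 2 of 10 members, against 38.4% of all genes. The 95% intervals of all 10 lay between -0.62 and 0.76, which is 0.649-fold to 1.69-fold. A p above the threshold does not show that the levels were equal, and these intervals give the differences that 4 arrays allow.

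**Figure D1:**
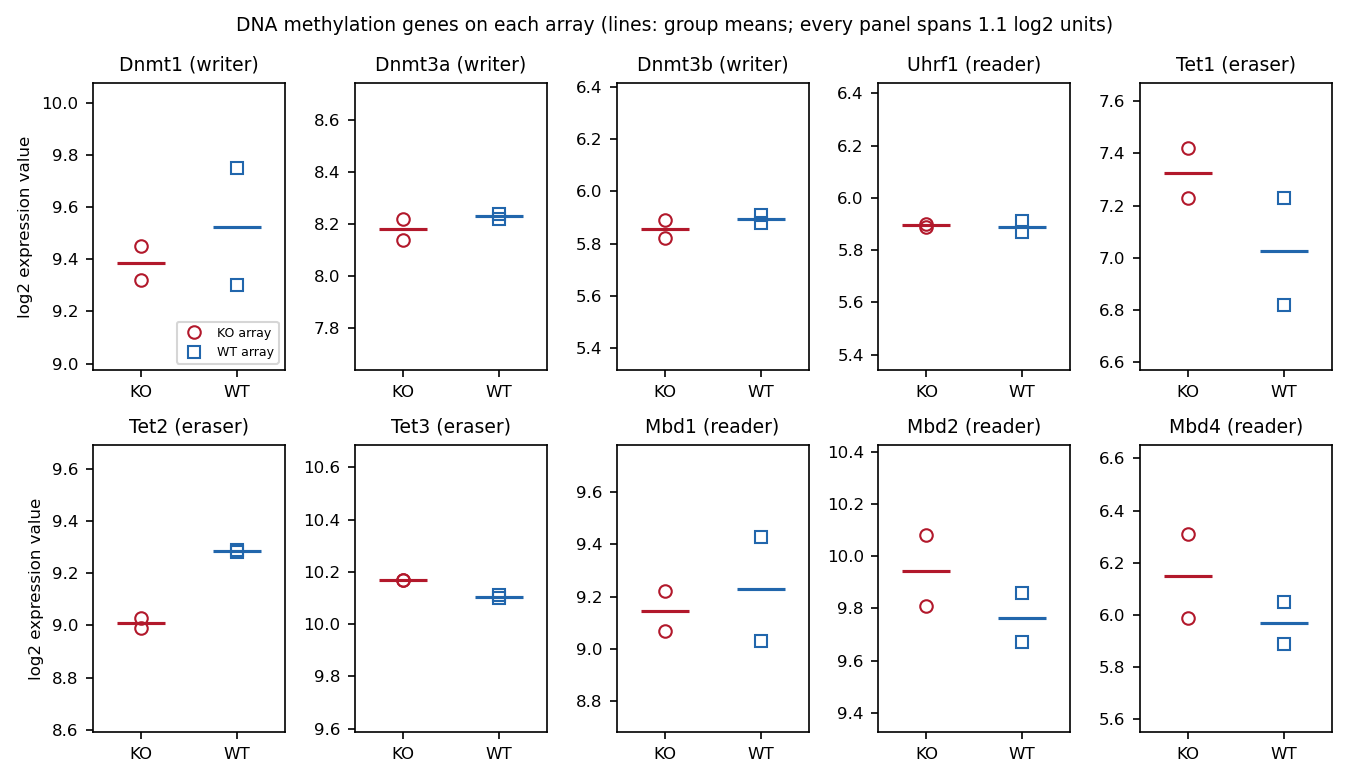
Log2 expression value (vertical axis) of each of the 10 genes on every array, with the arrays labelled KO as circles on the left, the arrays labelled WT as squares on the right and lines at the group means; every panel spans the same number of log2 units. Tet2 is the gene whose KO arrays (9.03 and 8.99) both lie below the WT arrays (9.28 and 9.29), Tet3 has its KO arrays (10.17 on both) just above the WT arrays (10.10 and 10.11), and in the other 8 panels the groups overlap or tie.

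Among the writers, Dnmt1 copies methylation onto the new strand after replication. It read 9.45 and 9.32 on the arrays labelled KO, against 9.30 and 9.75 on the arrays labelled WT. Both KO values lay between the WT values, and WT replicate 3 was the highest of the 4. The difference was -0.14 (SE 0.19, 95% interval -0.62 to 0.34, limma adjusted p 0.875). The gap of 0.45 between the WT arrays was larger than the difference, and 7.92% of all genes had a WT gap at least as large. Without WT replicate 3 the sign turned, to 0.085, and without WT replicate 1 the difference was -0.365.

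Dnmt3a, an enzyme that sets methylation on unmethylated DNA and is known to be active in T cells, read 8.22 and 8.14 on the arrays labelled KO, against 8.22 and 8.24 on the arrays labelled WT. KO replicate 1 tied with the lower WT array. The difference was -0.05 (SE 0.12, 95% interval -0.36 to 0.26, limma adjusted p 0.942). Its relative Dnmt3b, best known from early embryos, read 5.89 and 5.82 on the arrays labelled KO, against 5.91 and 5.88 on the arrays labelled WT. These groups overlapped by 1 array, with a difference of -0.04 (SE 0.10, 95% interval -0.30 to 0.22, limma adjusted p 0.944). All 3 writers thus had small negative values with intervals on both sides of 0. Each cluster gives 1 value for a gene, so the known short and long isoforms of Dnmt3a and Dnmt3b were not told apart.

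Uhrf1 reads DNA methylated on 1 strand and brings Dnmt1 to it. It read 5.89 and 5.90 on the arrays labelled KO, against 5.91 and 5.87 on the arrays labelled WT, so the KO arrays lay inside the WT pair. The difference was 0.01 (SE 0.10, 95% interval -0.25 to 0.26, limma adjusted p 0.985), and -0.015 without WT replicate 3. Dnmt1 and Uhrf1 are known to be made mainly in dividing cells, so genes of S phase and proliferation were set beside them. Of 17 such genes, 11 were higher and 6 lower on the arrays labelled KO (median 0.08), with summed linear levels of 6512 and 5564 there and 5414 and 6927 on the arrays labelled WT. The list's median was -0.03 without KO replicate 1 and -0.01 without WT replicate 1. The proliferation marker Mki67 read 8.69 and 8.90 on the arrays labelled KO, against 7.17 and 8.09 on the arrays labelled WT (difference 1.17, limma adjusted p 0.378). The helicase subunit gene Mcm2 was, like Dnmt1, highest on WT replicate 3, with 9.30 and 9.01 on the arrays labelled KO, against 9.15 and 9.83 on the arrays labelled WT, and was picked after its values were seen. The part of cell division in the Dnmt1 and Uhrf1 values was not tested.

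Among the erasers, Tet2 had the smallest p of the 10 genes. Tet2 is an oxidase widely expressed in blood cells, where its loss is known to favour clonal growth, and with Tet3 it keeps Foxp3 enhancers demethylated in mice. It read 9.03 and 8.99 on the arrays labelled KO, against 9.28 and 9.29 on the arrays labelled WT. Both KO arrays lay below both WT arrays, by 0.25 to 0.30 for each pairing of arrays, while arrays of the same group differed by at most 0.04. Group means were 9.01 ± 0.03 on the arrays labelled KO and 9.29 ± 0.01 on the arrays labelled WT (SD, n = 2 each). The difference of -0.28 (SE 0.12, 95% interval -0.59 to 0.04) is 0.826-fold, and it did not pass (unadjusted p 0.0739, limma adjusted p 0.542). Over all genes, 17.5% had both KO arrays below both WT arrays. The summed T cell marker levels given above were also fully separated between the groups, as was the sum over all genes tested. The summed plasma cell marker levels were separated narrowly, with 2701 on the lowest KO array and 2662 on the highest WT array. Most of that sum is Xbp1, whose own values overlapped between the groups. Of 9 myeloid cell markers 2 were higher and 7 lower on the arrays labelled KO (median -0.11). Of 5 dendritic cell markers 0 were higher and 5 lower (median -0.07), and of 4 NK cell markers 2 were higher and 2 lower. Most of these were dim, with 7, 4 and 3 of them below the median gene. The part of any of these marker levels in the Tet2 values was not tested. The limma SE is larger than the spread of these 4 values because the fit draws each gene towards the spread of genes with a similar level.

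Tet3, the other oxidase of that pair, read 10.17 and 10.17 on the arrays labelled KO, against 10.10 and 10.11 on the arrays labelled WT. Both KO arrays lay above both WT arrays, as for 20.9% of all genes, but only by 0.06 to 0.07. The difference was 0.07 (SE 0.12, 95% interval -0.24 to 0.37, 1.05-fold, limma adjusted p 0.913). Tet1, best known from embryonic stem cells, read 7.42 and 7.23 on the arrays labelled KO, against 7.23 and 6.82 on the arrays labelled WT. The lower KO array tied with the higher WT array, so the groups touched. The difference of 0.30 (SE 0.18, 95% interval -0.16 to 0.76, 1.23-fold, limma adjusted p 0.661) was the most positive of the 10, yet the WT arrays lay 0.41 apart. It was 0.505 without WT replicate 1 and 0.095 without WT replicate 3.

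The TET genes had differences of unlike sign. Because a shift common to a whole array cancels in the difference of 2 genes on it, Tet2 was also set against its relatives array by array, a choice made after the values were seen and given without a test. Tet2 minus Tet3 was -1.14 and -1.18 on the arrays labelled KO, against -0.82 and -0.82 on the arrays labelled WT, a change of -0.34. Tet1 minus Tet2 was -1.61 and -1.76 on the arrays labelled KO, against -2.05 and -2.47 on the arrays labelled WT, a change of 0.58. In both cases the KO arrays lay on one side of the WT arrays, which already follows from the values of the single genes given above. Tet1 minus Tet3 was -2.75 and -2.94 on the arrays labelled KO, against -2.87 and -3.29 on the arrays labelled WT. For that pair the groups overlapped. The size of such a difference on 1 array mixes probe behaviour with abundance, so it is the change between genotypes that can be read.

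**Figure D2:**
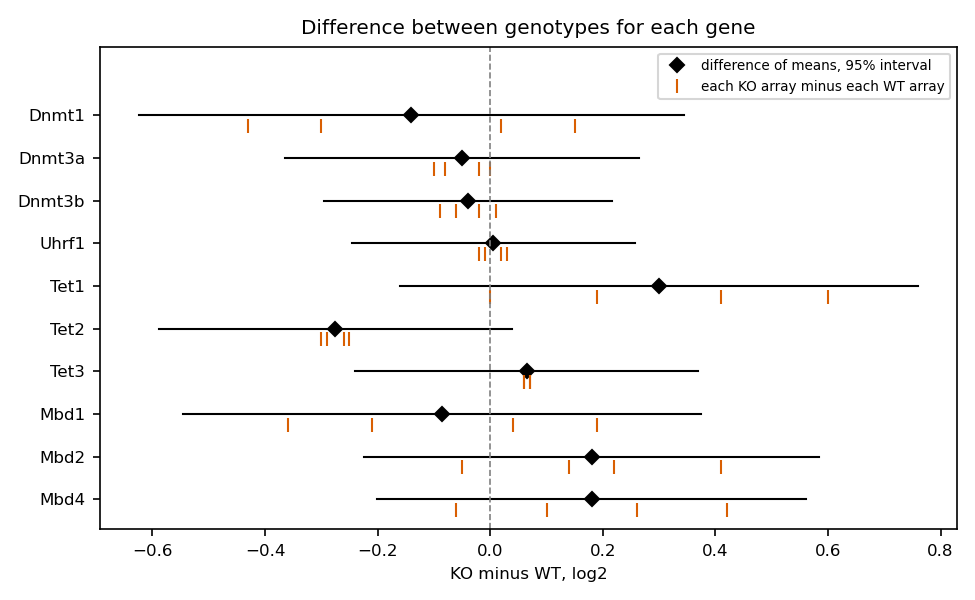
Difference KO minus WT in log2 units (horizontal axis) for each gene, with diamonds for the difference of group means, black lines for its 95% interval from limma and short orange marks for each KO array minus each WT array. All 10 intervals hold 0; the marks of Tet2 lie together between -0.30 and -0.25, those of Tet3 between 0.06 and 0.07, and those of Dnmt1 spread from -0.43 to 0.15.

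The 250 bases before the RefSeq start of each TET gene are shown because these genes include the values furthest from 0 and the 2 members whose groups were fully separated, and because the CG dinucleotides in such windows are the substrate of the enzymes described here. Sequences are from the RefSeq promoter table of GRCm38.p6, 5′ to 3′ on the gene's strand, with every CG in capitals.
Tet1, chr10:62887325-62887574, minus strand: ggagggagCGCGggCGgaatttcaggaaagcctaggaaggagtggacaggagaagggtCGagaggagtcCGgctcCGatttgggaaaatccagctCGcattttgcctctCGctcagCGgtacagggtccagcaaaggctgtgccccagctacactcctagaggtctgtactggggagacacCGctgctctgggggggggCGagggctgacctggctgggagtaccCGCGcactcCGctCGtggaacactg
Tet2, chr3:133544391-133544640, minus strand: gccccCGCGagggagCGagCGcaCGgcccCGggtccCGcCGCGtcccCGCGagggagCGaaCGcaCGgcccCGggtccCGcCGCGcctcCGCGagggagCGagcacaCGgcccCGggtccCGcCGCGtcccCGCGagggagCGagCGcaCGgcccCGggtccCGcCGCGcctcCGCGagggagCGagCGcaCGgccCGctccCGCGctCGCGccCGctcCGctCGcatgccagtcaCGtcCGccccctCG
Tet3, chr6:83441679-83441928, minus strand: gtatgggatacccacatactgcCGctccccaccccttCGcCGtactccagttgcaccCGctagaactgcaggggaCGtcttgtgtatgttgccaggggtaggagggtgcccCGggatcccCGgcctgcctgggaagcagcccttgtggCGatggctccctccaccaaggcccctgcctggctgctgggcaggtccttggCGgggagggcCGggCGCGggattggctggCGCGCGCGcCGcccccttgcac

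The Tet2 window held 51 CG dinucleotides, a count reached by 22 of the 32851 windows in the table (0.067%), against 15 in the Tet1 window and 17 in the Tet3 window. Its G and C content was 83.6%, compared with 62.8% for Tet1 and 69.6% for Tet3. The Tet2 window is also built of repeated units: 77.9% of its bases equal the base 42 positions further on, the best of all shifts tried, whereas the best shift gave 35.5% for Tet1 and 37.0% for Tet3. Windows were found for 8 of the 10 members, 13 windows in all, with CG counts from 2 (1 of 3 Dnmt1 windows) to 51, against a median of 6 over the table. The GC box GGGCGG, searched on both strands and itself holding a CG, was found in 11 of these 13 windows and in all 8 of these members, against 32.7% of all windows. A match describes letters and not a bound site, and no methylation was measured in these cells, so nothing about the state of these windows is known from the arrays.

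Among the readers, Mbd2 binds methylated CG and brings the NuRD deacetylase complex. It read 9.81 and 10.08 on the arrays labelled KO, against 9.67 and 9.86 on the arrays labelled WT. The groups overlapped, since KO replicate 1 lay below WT replicate 3, and the difference was 0.18 (SE 0.16, 95% interval -0.22 to 0.58, limma adjusted p 0.787). Mbd4, a glycosylase that removes thymine left by deaminated methylcytosine, read 6.31 and 5.99 on the arrays labelled KO, against 6.05 and 5.89 on the arrays labelled WT. The lower KO array lay between the WT arrays, and the difference was also 0.18 (SE 0.15, 95% interval -0.20 to 0.56, limma adjusted p 0.776). Mbd4 depended on KO replicate 1, with 0.02 without it and 0.34 without KO replicate 2. Mbd2 depended on KO replicate 2, with 0.045 without it and 0.315 without KO replicate 1.

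Mbd1, which binds methylated CG and carries a domain for unmethylated CG as well, read 9.22 and 9.07 on the arrays labelled KO, against 9.03 and 9.43 on the arrays labelled WT. Both KO values lay inside the WT pair, as for Dnmt1. The difference was -0.09 (SE 0.18, 95% interval -0.55 to 0.38, limma adjusted p 0.928), and it turned to 0.115 without WT replicate 3. WT replicate 3 was the highest array for 4 of the 10 members, Dnmt1, Mbd1, Tet2 and Dnmt3a, and for 22.2% of all genes. Without WT replicate 3, Dnmt1, Mbd1 and Uhrf1 changed sign, while Tet2 kept -0.27.

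**Figure D3:**
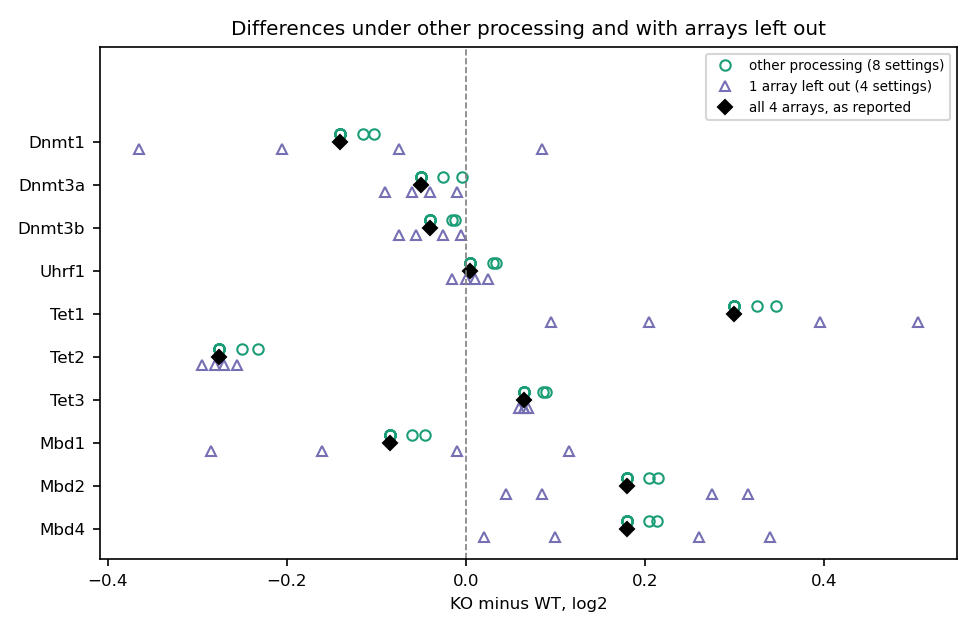
Difference KO minus WT in log2 units (horizontal axis) for each gene as reported (diamonds), under 8 other processing settings (circles) and with 1 array left out (triangles). Tet2 stays between -0.30 and -0.23 and Tet3 between 0.06 and 0.09 in all 12, while Dnmt1 runs from -0.37 to 0.085 and Mbd1 from -0.29 to 0.115. Of the processing settings, only median-centring and quantile normalization moved these differences.

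Proteins that work with the 10 genes were followed in lists, and 0 genes of any of them passed the adjusted test in either direction. Of 12 cofactors and relatives of the methyltransferases, 8 were higher and 4 lower (median 0.05), and 0 had an unadjusted p under 0.05. Hells, a chromatin remodeller needed for methylation of repeats, differed by 0.02 (SE 0.12, limma adjusted p 0.973), Uhrf2 by -0.07 (SE 0.13) and Dnmt3l, the inactive partner of the embryonic enzymes, by -0.04 (SE 0.08). Cdca7l (-0.22, SE 0.15) and Usp7, a deubiquitinase that stabilises Dnmt1 and Uhrf1 (-0.14, SE 0.12), had both KO arrays below both WT arrays, while Trdmt1 (0.20, SE 0.14) and Cdca7 (0.095, SE 0.11) had both above. These were 2 of 12 in each direction, against 17.5% of all genes lower and 20.9% higher. Of 10 other CpG-binding proteins with a value, 4 were higher and 6 lower (median -0.05), with Cxxc5, a binder of unmethylated CG, at -0.21 (SE 0.10, limma adjusted p 0.568).

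Of 11 NuRD partners of Mbd2, 9 were higher and 2 lower, with a median of 0.08, but after a further quantile normalization 7 were higher and 4 lower, and without WT replicate 1 only 4 were higher and the median was -0.03. The members lower on the arrays labelled KO were Mta3 (-0.24, SE 0.12) and Cdk2ap1 (-0.24, SE 0.13), and neither passed (limma adjusted p 0.600 and 0.629). Base excision and demethylation helpers were split evenly, 6 higher and 6 lower of 12 (median -0.01), with the damage response gene Gadd45a at 0.20 (SE 0.14) and the glycosylase gene Smug1 at -0.16 (SE 0.10). Tdg, the glycosylase that removes oxidised methylcytosine, lies on a cluster with another gene and was not analysed here.

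The methyl donor cycle supplies and recycles the cofactor of the methyltransferases. Of 11 such genes with a value, 9 were higher and 2 lower on the arrays labelled KO (median 0.15), and 2 had an unadjusted p under 0.05, where 6.32% of all genes had such a p and were higher. Ahcy clears the product that inhibits methyltransferases. The cluster named for it, TC1600001677.mm.1, bears the name of a chromosome other than that of the Ahcy gene. Whether it reads Ahcy or a related copy was not tested. This cluster read 10.45 and 10.58 on the arrays labelled KO, against 9.97 and 9.99 on the arrays labelled WT. Both KO arrays lay above both WT arrays, as for 20.9% of all genes. The difference was 0.54 (SE 0.13, 1.45-fold), yet the limma adjusted p was 0.339. Mthfd1, a folate enzyme, differed by 0.40 (SE 0.15, limma adjusted p 0.494), and Shmt1, which feeds the folate cycle from serine, by 0.35 (SE 0.14, limma adjusted p 0.502). Mtr, which makes methionine, differed by -0.32 (SE 0.13, limma adjusted p 0.522). The list's median was 0.06 without KO replicate 1 and 0.24 without KO replicate 2.

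Tet enzymes need 2-oxoglutarate, which isocitrate dehydrogenases make. The mitochondrial enzyme gene Idh2 read 7.65 and 7.17 on the arrays labelled KO, against 6.85 and 6.75 on the arrays labelled WT. The cytosolic enzyme gene Idh1 read 8.09 and 8.41 on the arrays labelled KO, against 8.60 and 8.74 on the arrays labelled WT. As for 38.4% of all genes, the groups did not overlap in either gene, and the signs were opposite: 0.61 for Idh2 (SE 0.19, limma adjusted p 0.415) and -0.42 for Idh1 (SE 0.16, limma adjusted p 0.490). They were the 2 of 9 genes in the TET cofactor list with an unadjusted p under 0.05, 1 higher and 1 lower, where 3.76% of all genes had such a p and were lower. The list's median was -0.01.

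Genes whose activity is known to depend on DNA methylation were also examined, in lists chosen with earlier results of these data known. Of 17 germline genes that methylation is known to keep silent in body cells, 8 were higher and 9 lower (median -0.04), 0 had an unadjusted p under 0.05, and 16 of the 17 had a mean below that of the median gene (5.03). The list's mean level was 4.26 and 4.27 on the arrays labelled KO, against 4.30 and 4.26 on the arrays labelled WT, so the range over arrays was under 0.05. Of 16 imprinted genes with a value, 7 were higher, 8 lower and 1 equal (median -0.01), 9 and 6 after centring of the arrays. An unadjusted p under 0.05 was reached by 1 higher and 2 lower of the 16, against 6.32% and 3.76% of all genes. Kcnq1ot1, a long RNA read from the paternal copy, was lower (-0.52, SE 0.13, limma adjusted p 0.354). Impact was lower too (-0.54, SE 0.15, limma adjusted p 0.379), and the growth factor gene Igf2 was higher (0.36, SE 0.10, limma adjusted p 0.392). Of 5 genes with regions known to lose methylation in regulatory T cells, 2 were higher and 3 lower (median -0.08), and 0 and 5 after quantile normalization (median -0.16). Ikzf4 (-0.19, SE 0.12) and Ikzf2 (-0.155, SE 0.12) had both KO arrays below both WT arrays, as did 17.5% of all genes. Tnfrsf18 (-0.075, SE 0.12), Ctla4 (0.05, SE 0.17) and Il2ra (0.02, SE 0.07) did not.

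**Figure D4:**
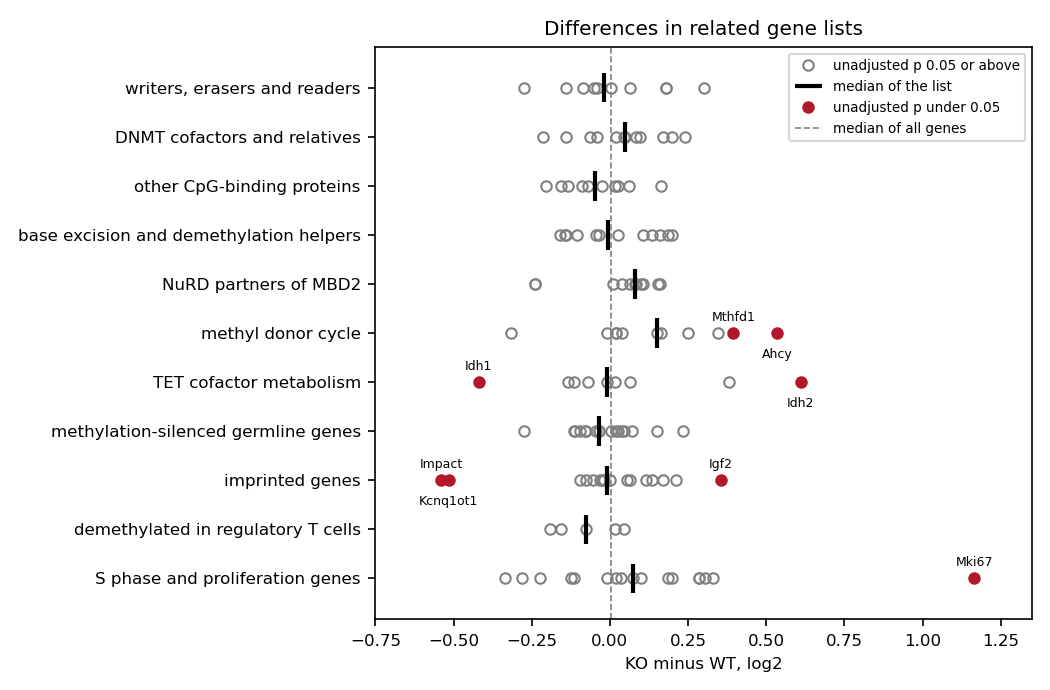
Difference KO minus WT in log2 units (horizontal axis) for the genes of each list (rows), with filled red points for an unadjusted limma p under 0.05, open points for the others, black bars at the list medians and a dashed line at the median of all genes. The 10 writers, erasers and readers lie between -0.28 and 0.30 with 0 red points; the red points of related lists are Ahcy, Mthfd1, Idh1, Idh2, Impact, Kcnq1ot1, Igf2 and Mki67.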

How the data were processed

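Expression was measured on 4 arrays, and the authors deposited log2 values for 65528 transcript clusters, made with RMA and Transcriptome Analysis Console per the submitters' processing notes (no versions given). The log base was taken from RMA and the range of the values. The sources used here do not state the background handling, the hybridisation or the genome build. The label fields describe SYBR real-time PCR although the series is typed as array data. All 4 sample columns were used. The number of arrays limits the precision, and no detection call comes with the table.

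Clusters were named through the platform annotation, with symbols updated through RefSeq (GRCm38.p6, names and gene types only): 31037 clusters had 1 gene, 1480 several (not named) and 33011 were not listed. For genes with several clusters the one with the highest mean was kept, which left 30492 genes. KO minus WT was tested two-sided in R 4.3.3 by lmFit and a trended eBayes of limma 3.58.1. P-values were adjusted by Benjamini-Hochberg over all genes, with a threshold of 0.05. Intervals are 95% intervals from that fit. With 2 arrays a group, the smallest two-sided p of an exact permutation test is 0.333, so none is reported. The fit was tested on simulated data. Groups do not overlap where both KO arrays lie above, or below, both WT arrays. Summed linear levels are sums of 2 to the power of the values. Named were all 10 members, Bmi1, and from each list up to 5 genes of smallest p with Hells, Uhrf2 and Dnmt3l, and of the markers those highest or lowest by difference. Mcm2, Cd4, Il2ra as a marker, Ms4a1, Xbp1 and Cdca7 were picked after their values were seen. Similarity of pattern over arrays was not computed, since 4 arrays are too few for a correlation. The members and lists were chosen with earlier results of these data known. The labels give no batch, slide or scan date. The 12 alternatives were other normalizations, filters, cluster rules and variance models, and leaving out each array.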

Additional observations from a re-analysis of the deposited data

How the results depend on the processing

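Of 120 member values under the 12 alternatives, 3 reversed. With all 4 arrays kept, 0 passed the adjusted threshold (limma adjusted p 0.396 or above). Filters, cluster rules and variance models left the member differences unchanged, so those values could not reverse. Without KO replicate 2 the Uhrf1 difference was 3.2e-15, which has no direction. The 3 that reversed did so without WT replicate 3: Dnmt1 to 0.085, Uhrf1 to -0.015 and Mbd1 to 0.115. With an array left out, Dnmt1 ran from -0.365 to 0.085, Uhrf1 from -0.015 to 0.025 and Mbd1 from -0.285 to 0.115. Members with an unadjusted p under 0.05 numbered 1 without an intensity trend (Tet2, p 0.0241) and 0 to 1 with an array left out (Tet1, without WT replicate 1). Members whose groups did not overlap numbered 4 after median-centring and 4 after quantile normalization and 4 to 8 with an array left out. With an array left out, 1 group has a single array assumed to vary like the others, and groups separate more readily. The share of all genes that did not overlap was not computed for these settings, so these counts are not read as a result about the members. Tet2 and Tet3 did not overlap after median-centring or quantile normalization. The other alternatives could not have made them overlap, since they leave the member values unchanged or only take an array away. Over all genes, 2 passed the limma adjusted test as reported, and 1 after median-centring, 0 after quantile normalization, 13 among genes at or above the median mean, 4 over all clusters, 1 among protein-coding genes, 0 without a trend, 0 with robust settings and 0 to 0 with an array left out; unadjusted, 3072 had a p under 0.05 as reported. The causes of these shifts were not tested. No paired analysis was possible because the groups share only replicate number 1. The table has no background measure, so a difference of a dim gene can understate its change.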
